A study of Mus musculus with 8 samples.

Results

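Transcripts of 9 genes that encode pore-forming and auxiliary subunits of pacemaker and calcium channels were followed in the ventricles of E15.5 mouse embryos. The set was *Hcn2*, *Hcn4*, *Cacna1c*, *Cacna1d*, *Cacna1g*, *Cacna1h*, *Cacnb2*, *Cacna2d1* and *Cacna2d2*. They were matched by symbol among the 53465 genes of the table, and the set was chosen with earlier results of these data known. All 9 passed the filter on low counts that left 15580 genes for testing. In these data *Hcn4*, *Cacna1d*, *Cacna1h* and *Cacna2d2* were higher in the ventricles that overproduced neuregulin-1, *Cacna1c* and *Cacnb2* were lower, and *Hcn2*, *Cacna1g* and *Cacna2d1* did not pass the test. The calls of *Cacna1d* and *Cacna1h* were lost when WT libraries that lay in close pairs were summed. Those of *Hcn4* and *Cacna1d* were lost at a stricter threshold of 0.01 for the adjusted p. The atrial marker *Myl7* was also higher in those ventricles, and a fit with its level as a second term made fewer calls over all tested genes (3.59% in place of 28.7%). In that fit *Cacna1c*, *Cacnb2* and *Cacna1g* were called lower and no member was called higher. The log2 fold changes of *Hcn4* and *Cacna1d* were then -0.15 and -0.38, while *Cacna1h* (0.47) and *Cacna2d2* (0.40) kept their direction, and *Cacna2d2* was called higher when 7 atrial markers took the place of *Myl7*.

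Poly(A) RNA of 4 *Nrg1GOF* and 4 wild-type (WT) samples was sequenced, with ventricle tissue from a single heart per replicate. The *Nrg1GOF* embryos carried an *Nrg1* transgene at the Rosa26 locus together with a cardiac Cre driver, which the genotype label spells Nkx5.5-Cre and the series title spells Nkx2.5-Cre. *Nkx2-5* is active in cardiac progenitors of both atria and ventricles, so the driver is not limited to the ventricle. The control embryos are labelled WT, without a statement of whether they carried Cre or the transgene alone, and the labels do not give the sex of the embryos. Nothing in the labels says how samples were spread over litters, so the p values below measure the spread between these samples only.

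HCN channels open on hyperpolarisation, are tuned by cyclic AMP, and carry the inward pacemaker current of automatic heart cells. L-type calcium channels admit the calcium that triggers contraction, and T-type channels open at more negative potentials and contribute to automaticity in the embryonic heart, the atria and the conduction system. A calcium channel of the L-type is built from a pore-forming alpha1 subunit with a cytosolic beta subunit and an alpha2delta subunit, which bring the pore to the surface membrane and shape its gating.

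Library totals ranged from 8038641 to 26786039 counts, with *Nrg1GOF* library 4 the shallowest. The WT libraries lay in 2 close pairs, since the correlation of log2 levels over genes was 0.989 within libraries 1 and 2, 0.991 within libraries 3 and 4 and 0.980 between the pairs. The labels give no litter, batch or date for these pairs, so results that rest on one of them are given against each pair. *Nrg1* checked the genotype labels, at 59.7 to 63.7 CPM (counts per 1000000 counts, on library sizes scaled by TMM, the trimmed mean of M-values) in *Nrg1GOF* and 3.07 to 4.47 CPM in WT, a log2 fold change of 3.94. Transcripts of the Y-linked genes *Ddx3y*, *Eif2s3y*, *Kdm5d* and *Uty* were present in every library. Their summed level on the log2 scale was 5.93 to 7.47 in *Nrg1GOF*. In WT it was 6.46 and 6.52 in libraries 1 and 2 and 7.60 and 7.53 in libraries 3 and 4, so it split by the same pairs. The ventricular markers *Myl2*, *Myl3*, *Myh7*, *Irx4* and *Hey2* were all present, with a summed level of 24288 to 25594 CPM in WT and 16418 to 21271 CPM in *Nrg1GOF*. In the test described below 4 of the 5 were called lower in *Nrg1GOF* and none higher, beside 12.8% of all tested genes called lower. The log2 fold change was -1.82 for *Hey2*, -0.48 for *Myh7*, -0.44 for *Irx4* and -0.31 for *Myl3*, and *Myl2* was not called (-0.24).

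Atrial and sinoatrial markers were measured in the same libraries, because tissue of the atria or of the pacemaker region would bring its own channel transcripts. *Myl7*, the atrial myosin regulatory light chain, measured 310.1, 341, 377 and 212 CPM in *Nrg1GOF* (libraries 1 to 4, the order used throughout) and 176, 156, 88.9 and 106 CPM in WT. Every *Nrg1GOF* library was thus above every WT library, and *Nrg1GOF* library 4 and the WT pair of libraries 3 and 4 were the low ones of their groups. Its log2 fold change of *Nrg1GOF* over WT was 1.24 (standard error, SE, 0.23) with an adjusted p = 0.00320 in the quasi-likelihood test of edgeR, where the adjustment is that of Benjamini and Hochberg over all tested genes and a gene below 0.05 is described as called. Of the 7 atrial markers 4 were called higher and none lower, beside 15.9% of all tested genes called higher and 12.8% lower. The other 3 were not called, with *Sln* at an adjusted p = 0.0767. The summed level of the 7 ran from 1030 to 1168 CPM in WT and from 1667 to 1833 CPM in *Nrg1GOF*. *Myl4* made up most of that sum (mean 862 CPM in WT and 1312 CPM in *Nrg1GOF*). It was highest in *Nrg1GOF* library 4 (1500 CPM), where *Myl7* and *Sln* (1.88 CPM) were lowest of their group. The atrial markers thus did not order the libraries alike. Of the 6 sinoatrial markers 5 were tested, and *Shox2* (log2 fold change 1.88), *Tbx3* (1.01) and *Vsnl1* (1.98) were called higher and *Tbx18* (-0.33) lower. *Isl1*, the defining factor of the sinoatrial node and second heart field progenitors, averaged 0.312 CPM in WT and 0.171 CPM in *Nrg1GOF* and was not tested, and the summed list ran from 90.8 to 94.8 CPM in WT and from 79.8 to 113 CPM in *Nrg1GOF*. *Tbx18* and *Smoc2*, with means of 58.4 and 20.3 CPM in WT, made up most of that sum. *Shox2*, *Tbx3* and *Vsnl1* averaged 1.69, 9.68 and 1.76 CPM in WT, so the sum says little about them. In bulk tissue, fewer cells of a type and less RNA per cell cannot be told apart.

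Of the 9 channel genes, 6 were called (4 higher and 2 lower), beside a background of 28.7% of all tested genes called, 15.9% higher and 12.8% lower. For 5 of them the libraries of both groups did not overlap (3 higher, 2 lower), beside 30.7% of all tested genes, 16.6% higher and 14.1% lower. Against WT libraries 1 and 2 alone 5 of the 9 genes were called (18.6% of all tested genes) and against WT libraries 3 and 4 alone 7 of the 9 (27.7%). With each WT pair summed to 1 sample 4 of the 9 were called (2 higher, *Hcn4* and *Cacna2d2*, and 2 lower), and the calls over all genes went from 4467 of 15580 to 2464 of 16150 tested genes. The median log2 fold change was 0.32 over the 9 genes and -0.01 over all tested genes.

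**Figure D1:**
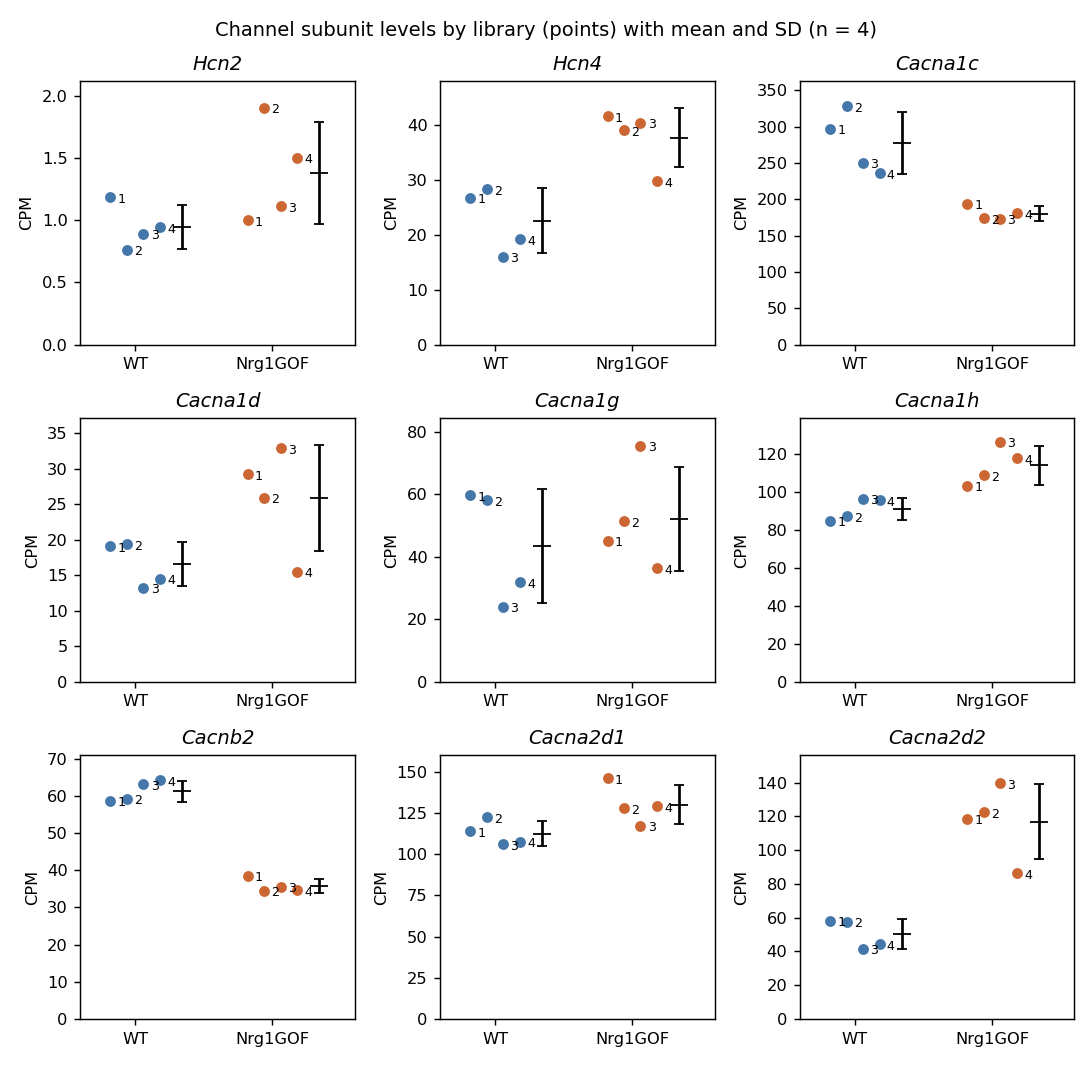
Level of each of the 9 channel genes in CPM (linear axes from 0) in the 4 WT and 4 *Nrg1GOF* libraries, with 1 numbered point per library and the group mean with its SD beside the points. The groups are apart for *Hcn4*, *Cacna1c*, *Cacna1h*, *Cacnb2* and *Cacna2d2* and overlap for *Hcn2*, *Cacna1d*, *Cacna1g* and *Cacna2d1*.

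Proximal promoters were read for the members from RefSeq on GRCm38.p6, as windows from 250 bases before to 50 bases after an annotated transcript start. Of the 9 genes 7 had an entry, with 11 windows of 300 bases in all, while *Cacna1g* and *Cacna1h* had none. The windows of *Hcn4* and *Cacna2d2*, the pore and auxiliary genes that were higher with the greatest change in their class, and of *Cacnb2*, the most firmly lower member, are shown so that the regions before their starts can be compared. They lie at chr9:58822699-58822998 (*Hcn4*), chr9:107399630-107399929 (*Cacna2d2*) and chr2:14604056-14604355 (*Cacnb2*, the window before its 5′-most start given), all on the plus strand and written 5′ to 3′, with capitals marking each match to the GC box GGGCGG on either strand.
Hcn4: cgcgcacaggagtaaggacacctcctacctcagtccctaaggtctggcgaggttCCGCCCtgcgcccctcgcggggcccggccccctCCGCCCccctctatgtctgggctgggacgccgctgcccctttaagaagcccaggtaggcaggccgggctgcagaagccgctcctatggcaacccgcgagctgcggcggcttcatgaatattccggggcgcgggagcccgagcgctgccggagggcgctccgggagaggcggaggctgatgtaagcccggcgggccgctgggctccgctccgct
Cacna2d2: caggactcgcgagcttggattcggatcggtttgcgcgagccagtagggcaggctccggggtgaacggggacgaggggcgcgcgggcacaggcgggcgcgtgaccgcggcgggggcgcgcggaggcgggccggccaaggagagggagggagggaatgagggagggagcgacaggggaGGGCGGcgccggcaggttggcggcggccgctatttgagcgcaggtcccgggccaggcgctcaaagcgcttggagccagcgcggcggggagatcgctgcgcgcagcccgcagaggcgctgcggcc
Cacnb2: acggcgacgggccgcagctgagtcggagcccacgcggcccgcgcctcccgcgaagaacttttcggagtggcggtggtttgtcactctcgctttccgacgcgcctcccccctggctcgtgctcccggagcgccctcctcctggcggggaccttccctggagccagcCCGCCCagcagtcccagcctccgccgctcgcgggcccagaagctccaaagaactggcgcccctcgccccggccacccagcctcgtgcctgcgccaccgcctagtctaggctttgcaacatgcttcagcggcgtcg

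All 3 windows were rich in G and C (71.7% for *Hcn4*, 75.7% for *Cacna2d2* and 71.7% for *Cacnb2*). The *Hcn4* window held 2 GC boxes and the other 2 windows held 1 each. This motif was present in 35.7% of the 32851 promoter windows of the mouse table, and in 7 of the 11 windows of the channel genes. Further motifs were searched on both strands. The ETS site CCGGAAG, which was present in 8.86% of all windows, was found in none of the 11. The T-box half-site GGTGTGA, present in 3.98% of all windows, and the NKX2-5 site TTAAGTG, present in 2.41%, were likewise found in none. The same held for the E-box CACGTG (7.15% of all windows) and for the cyclic AMP response element TGACGTCA (1.79%). The TATA box TATAAA, present in 13.6% of all windows, was found in 1 window, before the more distal start of *Cacna1d*. No match of one motif overlapped a match of another. A match is a match of letters only.

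The pacemaker channels came first. *Hcn4* (ENSMUSG00000032338, GRCm38 chr9:58823412-58863175, plus strand), the main HCN isoform of the sinoatrial node and the embryonic heart, stood at 41.6, 39.1, 40.5 and 29.8 CPM in *Nrg1GOF* and at 26.8, 28.3, 15.97 and 19.2 CPM in WT. The groups did not overlap, although the lowest *Nrg1GOF* library, number 4, was close to WT libraries 1 and 2. The mean rose from 22.6 ± 5.93 CPM to 37.7 ± 5.42 CPM (SD, n = 4 each) for a log2 fold change of 0.76 (SE 0.18, edgeR adjusted p = 0.0106). With WT libraries 1 and 2 as the only controls it was 0.47 (adjusted p = 0.0306) and with WT libraries 3 and 4 as the only controls 1.12 (adjusted p = 0.000794), so that its size depended on which pair of controls was used while the call did not.

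*Hcn2* (ENSMUSG00000020331, chr10:79716634-79736108, plus strand), an HCN isoform of working myocardium and brain, was the least abundant member. It had 0.998, 1.90, 1.11 and 1.5 CPM in *Nrg1GOF* and 1.18, 0.764, 0.890 and 0.942 CPM in WT, which rest on 12 to 40 counts per library. The highest 2 libraries were *Nrg1GOF* and the groups overlapped. The means of 1.38 ± 0.411 CPM and 0.945 ± 0.176 CPM (SD, n = 4 each) gave a log2 fold change of 0.52 (SE 0.28, 95% interval -0.10 to 1.14, edgeR adjusted p = 0.200). No difference was called, and an increase of more than 2-fold lay within the interval. Per exonic base, *Hcn4* made up 84.4% to 90.9% of all HCN counts in WT and 89.3% to 93.2% in *Nrg1GOF*, where the ranges overlapped. The within-library log2 ratio of *Hcn4* to *Hcn2* was 4.56 ± 0.46 in WT and 4.81 ± 0.55 in *Nrg1GOF*, a difference of 0.25 that an exact permutation test did not separate (two-sided p = 0.543, adjusted p = 0.724 over 4 ratios).

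The L-type pores went in opposite directions. *Cacna1c* (ENSMUSG00000051331, chr6:118587240-119196418, minus strand), which encodes the main L-type pore of ventricular muscle, measured 194, 174, 173 and 181 CPM in *Nrg1GOF* and 297, 328, 250.0 and 236 CPM in WT. All 4 *Nrg1GOF* libraries were below all 4 WT libraries and lay closer together than the WT libraries, of which 1 and 2 were the highest. The mean fell from 278 ± 42.6 CPM to 181 ± 9.80 CPM (SD, n = 4 each) for a log2 fold change of -0.62 (SE 0.10, edgeR adjusted p = 0.00150) or a 1.54-fold lower level. It was -0.79 (adjusted p = 0.000331) against WT libraries 1 and 2 and -0.42 (adjusted p = 0.00308) against WT libraries 3 and 4.

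*Cacna1d* (ENSMUSG00000015968, chr14:30039939-30491455, minus strand) encodes the L-type pore that opens at more negative potentials and is characteristic of atrial and nodal cells. It measured 29.3, 25.95, 32.9 and 15.5 CPM in *Nrg1GOF* and 19.1, 19.4, 13.3 and 14.5 CPM in WT. *Nrg1GOF* libraries 1 to 3 were above all WT libraries, but *Nrg1GOF* library 4 lay inside the WT range. The mean rose from 16.6 ± 3.12 CPM to 25.9 ± 7.49 CPM (SD, n = 4 each) for a log2 fold change of 0.67 (SE 0.21, edgeR adjusted p = 0.0353). This call was the least secure of the 6, since the adjusted p was 0.0922, 0.0823 or 0.0948 without *Nrg1GOF* library 1, 2 or 3 and 0.0902 or 0.0917 without WT library 3 or 4, and with only WT libraries 1 and 2 as controls the log2 fold change was 0.46 (adjusted p = 0.198). With only WT libraries 3 and 4 as controls the log2 fold change of *Cacna1d* was 0.93 (edgeR adjusted p = 0.0212). With each WT pair summed to 1 sample the adjusted p was 0.130.

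Within a library, *Cacna1d* gained on *Cacna1c* in all 4 *Nrg1GOF* samples. Their log2 ratio was -2.73, -2.74, -2.40 and -3.55 in *Nrg1GOF* libraries 1 to 4 and -3.96, -4.08, -4.24 and -4.02 in WT libraries 1 to 4, without overlap. The mean difference of 1.22 was the most extreme of the 70 assignments of the 8 libraries, which gives p = 0.0286, the smallest two-sided exact permutation p this design allows, and an adjusted p = 0.0571 over the 4 ratios. The test over 4 ratios therefore did not pass 0.05. *Cacna1c* accounted for 42.2% to 47.6% of the counts per exonic base of all calcium channel pores in WT and for 25.4% to 33.5% in *Nrg1GOF*, against 4.00% to 4.89% and 4.68% to 8.48% for *Cacna1d*.

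**Figure D2:**
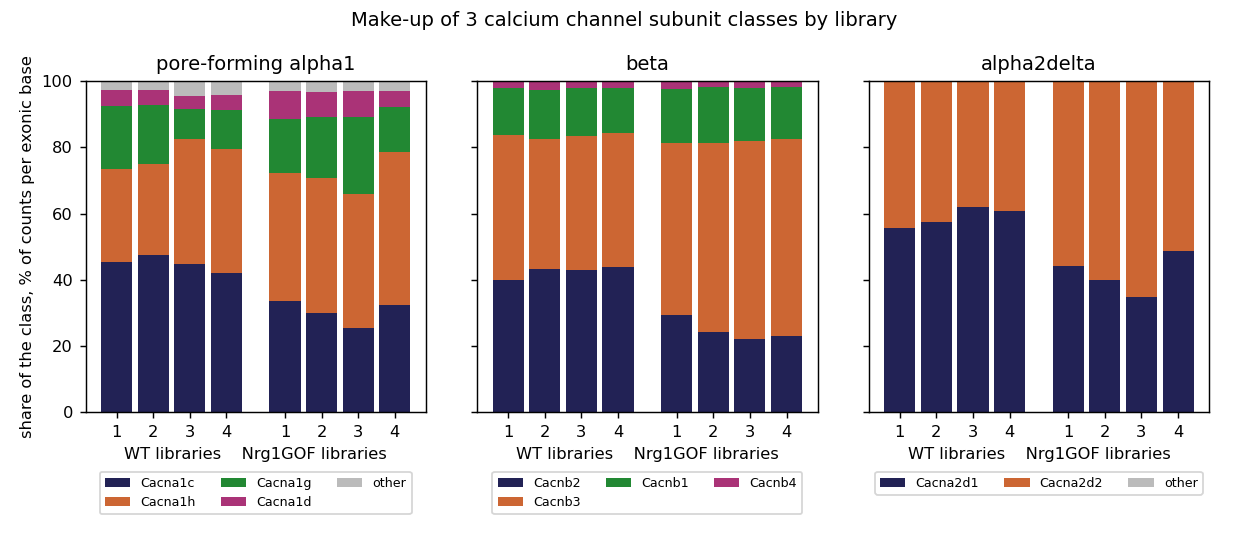
Stacked bars of the share of each gene, in percent of the counts per exonic base of its class (pore-forming alpha1, beta and alpha2delta subunits), for each of the 8 libraries. *Cacna1c*, *Cacnb2* and *Cacna2d1* had lower shares in every *Nrg1GOF* library than in any WT library, and *Cacna1h*, *Cacnb3* and *Cacna2d2* higher ones.

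The T-type pores differed from each other. *Cacna1h* (ENSMUSG00000024112, chr17:25374285-25433783, minus strand) encodes a T-type pore found in fetal ventricle and the conduction system. It measured 103, 109, 127 and 118 CPM in *Nrg1GOF* and 85.03, 87.4, 96.7 and 95.8 CPM in WT, with each *Nrg1GOF* library above each WT library. The mean rose from 91.2 ± 5.87 CPM to 114 ± 10.2 CPM (SD, n = 4 each) for a small log2 fold change of 0.32 (SE 0.07, edgeR adjusted p = 0.00982). It was 0.40 (adjusted p = 0.0144) against WT libraries 1 and 2 and 0.25 (adjusted p = 0.0628) against WT libraries 3 and 4, so the call was lost against the latter pair. It was also lost with each WT pair summed to 1 sample (adjusted p = 0.0634). *Cacna1h* held 27.5% to 37.7% of the pore counts per exonic base in WT and 38.7% to 46.0% in *Nrg1GOF*, where it exceeded the share of *Cacna1c* in every library. That order depended on the length used, since per base of the longest transcript *Cacna1h* was above *Cacna1c* in 3 of 4 *Nrg1GOF* libraries and their ranges overlapped. In WT *Cacna1c* had the higher share in every library with either length.

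*Cacna1g* (ENSMUSG00000020866, chr11:94408391-94474198, minus strand), the T-type pore of the sinoatrial and atrioventricular nodes, measured 45.1, 51.3, 75.5 and 36.4 CPM in *Nrg1GOF* and 59.7, 58.1, 24.1 and 31.8 CPM in WT. The groups overlapped widely, because WT libraries 1 and 2 held about as much as the *Nrg1GOF* libraries and WT libraries 3 and 4 much less. The means of 52.1 ± 16.8 CPM and 43.4 ± 18.2 CPM (SD, n = 4 each) gave a log2 fold change of 0.28 (SE 0.31, 95% interval -0.40 to 0.96, edgeR adjusted p = 0.543). The sign was set by the choice of controls, with -0.16 (adjusted p = 0.676) against WT libraries 1 and 2 and 0.93 (adjusted p = 0.0286) against WT libraries 3 and 4. The log2 ratio of *Cacna1h* to *Cacna1g* was 1.17 ± 0.74 in WT and 1.18 ± 0.39 in *Nrg1GOF* (difference 0.0075, exact permutation p = 1, adjusted p = 1).

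Among the auxiliary subunits, *Cacnb2* (ENSMUSG00000057914, chr2:14603088-14987908, plus strand), the principal beta subunit of cardiac L-type channels, was the most clearly separated member. It measured 38.5, 34.5, 35.6 and 34.6 CPM in *Nrg1GOF* and 58.6, 59.2, 63.1 and 64.2 CPM in WT. The highest *Nrg1GOF* library was far below the lowest WT library and both groups were tight. The mean fell from 61.3 ± 2.78 CPM to 35.8 ± 1.84 CPM (SD, n = 4 each) for a log2 fold change of -0.77 (SE 0.06, edgeR adjusted p = 2.43e-05) or a 1.71-fold lower level. The fold change differed little between the control pairs, with -0.72 (adjusted p = 0.000428) against WT libraries 1 and 2 and -0.82 (adjusted p = 0.000127) against WT libraries 3 and 4.

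*Cacnb3*, a beta subunit of neurons and smooth muscle that was not a member and was chosen after its values were seen, went the other way. It rose from 17.9 ± 1.27 CPM to 25.2 ± 3.67 CPM (SD, n = 4 each) for a log2 fold change of 0.48 (SE 0.11, edgeR adjusted p = 0.00840), without overlap. Per exonic base, *Cacnb2* supplied 40.1% to 43.8% of the beta subunit counts in WT and 22.2% to 29.5% in *Nrg1GOF*, and *Cacnb3* supplied 39.2% to 43.6% and 51.7% to 59.5%. Per base of the longest transcript the shares of *Cacnb2* were 55.3% to 59.0% in WT and 34.4% to 43.6% in *Nrg1GOF*, against 29.6% to 33.6% and 42.6% to 51.5% for *Cacnb3*, so that their order in WT depended on the length used while the fall of the *Cacnb2* share without overlap did not.

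*Cacna2d2* (ENSMUSG00000010066, chr9:107399612-107529343, plus strand), an alpha2delta subunit best known from Purkinje neurons of the cerebellum, showed the widest change of the 9. It measured 119, 122, 139.8 and 86.4 CPM in *Nrg1GOF* and 58.3, 57.7, 41.5 and 44.3 CPM in WT. The groups did not overlap, with *Nrg1GOF* library 4 the lowest of its group and WT libraries 3 and 4 below WT libraries 1 and 2. The mean rose from 50.4 ± 8.81 CPM to 117 ± 22.3 CPM (SD, n = 4 each) for a log2 fold change of 1.22 (SE 0.16, edgeR adjusted p = 0.000407) or 2.33-fold. It was 1.02 (adjusted p = 0.00328) against WT libraries 1 and 2 and 1.46 (adjusted p = 0.000533) against WT libraries 3 and 4.

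*Cacna2d1* (ENSMUSG00000040118, chr5:15934691-16374511, plus strand), the alpha2delta subunit of cardiac and skeletal muscle L-type channels, measured 146, 127.9, 117 and 129 CPM in *Nrg1GOF* and 114, 123, 106 and 108 CPM in WT. *Nrg1GOF* library 3 lay below WT library 2, so the groups overlapped. The means of 130.1 ± 11.98 CPM and 113 ± 7.54 CPM (SD, n = 4 each) gave a log2 fold change of 0.21 (SE 0.08, 95% interval 0.04 to 0.38, edgeR adjusted p = 0.0659). It crossed the threshold when libraries were scaled by their total (0.25, adjusted p = 0.0213) or fitted with the replicate number as a block (0.21, adjusted p = 0.0412). It also did so without *Nrg1GOF* library 3 (0.26, adjusted p = 0.0270), without WT library 2 (0.25, adjusted p = 0.0456) and with only WT libraries 3 and 4 as controls (0.29, adjusted p = 0.0400). In 20 of 25 alternatives *Cacna2d1* stayed uncalled. Among these were WT libraries 1 and 2 as the only controls (0.14, edgeR adjusted p = 0.347) and each WT pair summed (0.22, adjusted p = 0.180).

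The log2 ratio of *Cacna2d2* to *Cacna2d1* was -0.30, -0.06, 0.25 and -0.58 in *Nrg1GOF* libraries 1 to 4 and -0.97, -1.09, -1.35 and -1.28 in WT libraries 1 to 4. The groups did not overlap, and the mean difference of 1.00 had the smallest exact permutation p the design allows, 0.0286, with an adjusted p = 0.0571 over the 4 ratios. Per exonic base, *Cacna2d1* was the more abundant alpha2delta transcript in every WT library, at 55.5% to 62.0%, and *Cacna2d2* was the more abundant in every *Nrg1GOF* library, at 51.0% to 65.0%. Per base of the longest transcript *Cacna2d2* held 33.4% to 39.5% in WT and 45.9% to 60.3% in *Nrg1GOF*, and was above *Cacna2d1* in 3 of the 4 *Nrg1GOF* libraries.

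**Figure D3:**
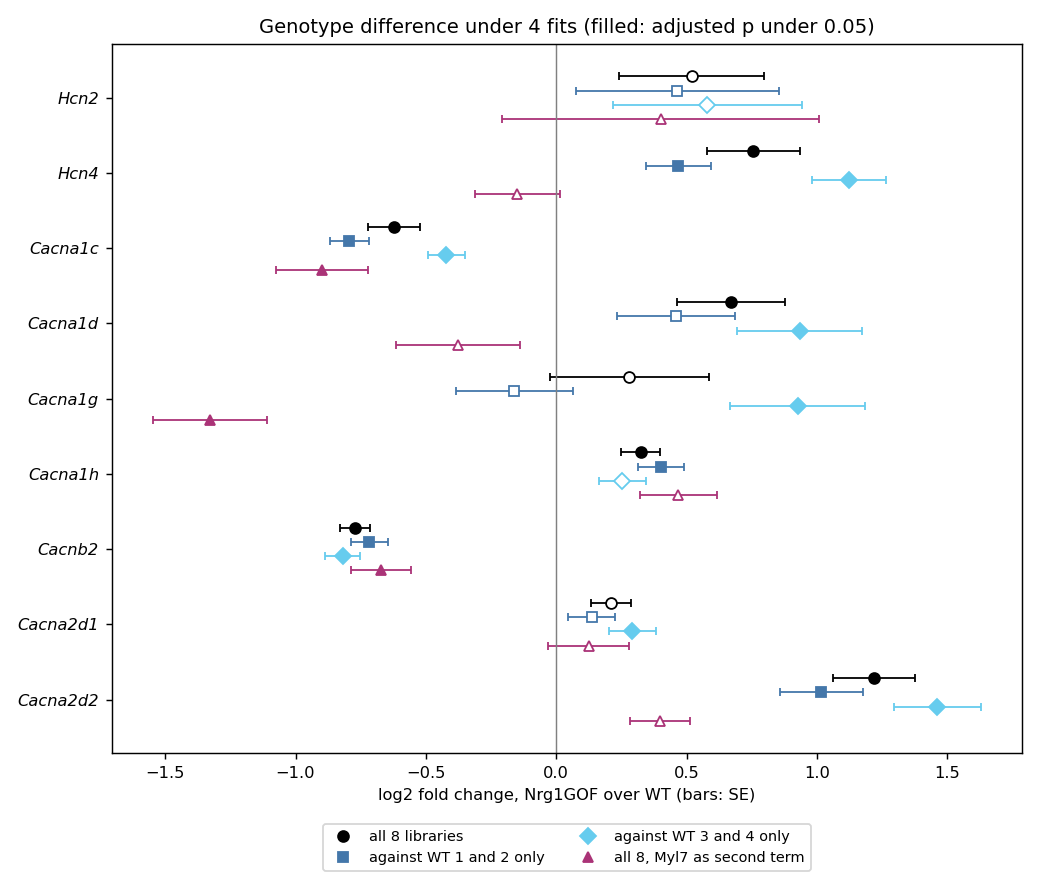
Log2 fold change of *Nrg1GOF* over WT with its SE for the 9 channel genes in 4 fits, with all 8 libraries, with WT libraries 1 and 2 or WT libraries 3 and 4 as the only controls, and with *Myl7* as a second term (filled symbols for called terms). *Cacna1c* and *Cacnb2* were below 0 and called in all 4, *Hcn4* and *Cacna1d* turned below 0 with *Myl7*, and *Cacna2d2* moved from 1.22 to 0.40 there.

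Levels of different genes were compared as CPM per kilobase of exonic sequence. In WT the order was *Cacna1c* (13.1 ± 2.01), *Cacna1h* (9.34 ± 0.60), *Cacna2d1* (9.07 ± 0.61), *Cacna2d2* (6.35 ± 1.11), *Cacnb2* (4.63 ± 0.21), *Cacna1g* (4.28 ± 1.79), *Hcn4* (3.69 ± 0.97), *Cacna1d* (1.31 ± 0.25) and *Hcn2* (0.296 ± 0.055, SD, n = 4). *Cacna1h* did not differ from *Cacna2d1* beyond the spread of the libraries, nor did *Cacnb2*, *Cacna1g* and *Hcn4* from their neighbours in that run. In *Nrg1GOF* the order was *Cacna2d2* (14.7 ± 2.80), *Cacna1h* (11.7 ± 1.05), *Cacna2d1* (10.5 ± 0.97), *Cacna1c* (8.52 ± 0.46), *Hcn4* (6.17 ± 0.89), *Cacna1g* (5.14 ± 1.66), *Cacnb2* (2.71 ± 0.14), *Cacna1d* (2.05 ± 0.59) and *Hcn2* (0.432 ± 0.129, SD, n = 4). There the ranges of *Cacna2d2*, *Cacna1h* and *Cacna2d1* overlapped from one to the next, as did those of *Hcn4* and *Cacna1g*. *Cacna1c* thus went from rank 1 to rank 4. With the longest transcript in place of all exonic sequence, *Cacna1c* was still first in WT (21.1) and *Cacna2d2* first in *Nrg1GOF* (20.1), but *Cacnb2* moved up to rank 3 in WT (12.2) and to rank 5 in *Nrg1GOF* (7.12).

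Each member was then set against *Myl7* across libraries. Within a genotype, 6 pairs of libraries can be ordered by *Myl7*, 12 in all, and a gene without relation to *Myl7* would be ordered alike in some of them anyway, as the median of 6 over all tested genes shows. *Cacna1g* and *Cacna2d2* followed *Myl7* in 12 of 12 pairs, as did 0.456% of all tested genes. *Cacna1d* followed it in 10 pairs (5.91% of tested genes had at least as many), *Hcn4* in 9 (12.7%) and *Hcn2* in 7 (39.5%). *Cacna2d1* was ordered like *Myl7* in 6 pairs (58.2%), *Cacna1c* in 5 (75.2%) and *Cacna1h* and *Cacnb2* in 4 each (87.4%). These genes therefore stood at or below the median of all genes. *Cacna1c* did so unevenly, with 4 of 6 pairs in WT and 1 of 6 in *Nrg1GOF*, as did *Cacna2d1*, with 5 of 6 and 1 of 6, and *Cacna1h*, with 0 of 6 in WT and 4 of 6 in *Nrg1GOF*. With 4 libraries per genotype no correlation was computed.

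**Figure D4:**
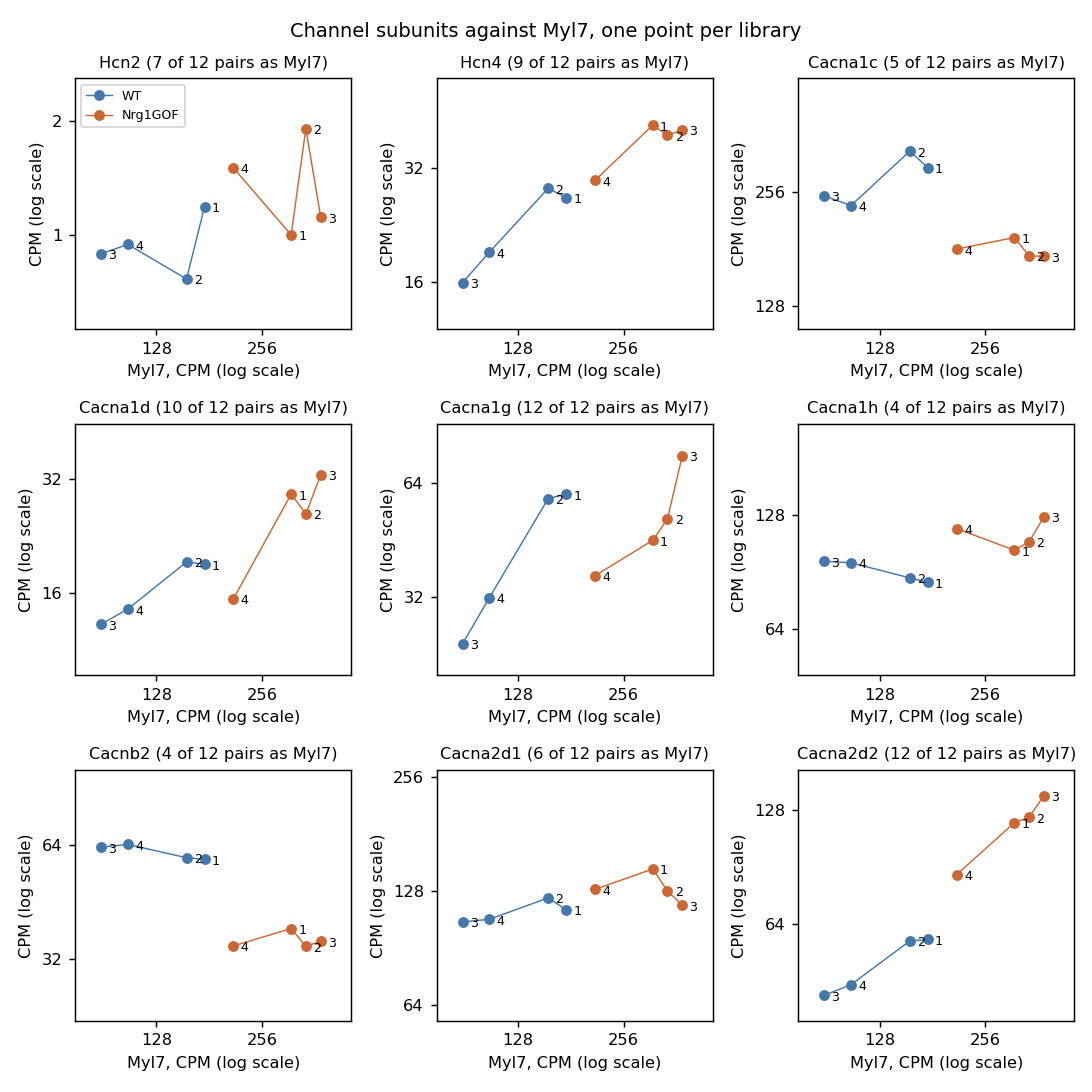
CPM of each channel gene against CPM of *Myl7* in the same library, both on log axes, with 1 numbered point per library and lines that join the libraries of a genotype in order of *Myl7*. *Cacna1g* and *Cacna2d2* climb with *Myl7* in both genotypes (12 of 12 pairs), whereas *Cacnb2* lies at 2 separate levels (4 of 12 pairs).

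A fit with the log2 CPM of *Myl7* as a second term estimated the genotype difference along a common slope on *Myl7*. *Myl7* itself differs between the genotypes without overlap, so both terms share much of their information and the genotype term is an extrapolation. Within WT the *Myl7* level follows the close pairs (176 and 156 CPM against 88.9 and 106 CPM). The slope there cannot be told apart from the unexplained difference between these pairs. In that fit 559 of all tested genes (3.59%) had a called genotype term, and 35 genes (0.225%) had a called slope on *Myl7*. *Cacna1g* and *Cacna2d2* were among those 35, with slopes of 1.303 (SE 0.15, adjusted p = 0.0169) and 0.65 (SE 0.08, adjusted p = 0.0192) log2 units per log2 unit of *Myl7*. The slope of *Hcn4* was 0.73 (SE 0.11, adjusted p = 0.0502) and that of *Cacna1d* 0.81 (SE 0.16, adjusted p = 0.102). The slopes of the other 5 genes lay between -0.11 and 0.23 and none was called.

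In the same fit 3 channel genes had a called genotype term, all lower. *Cacna1c* had a log2 fold change of -0.90 (SE 0.18, edgeR adjusted p = 0.0307) and *Cacnb2* of -0.67 (SE 0.12, adjusted p = 0.0206), compared with -0.62 and -0.77 without *Myl7*. *Cacna1g* turned to -1.33 (SE 0.22, adjusted p = 0.0182). *Hcn4* and *Cacna1d* changed sign and lost their calls, with a genotype term of -0.15 for the former (SE 0.16, adjusted p = 0.678) and of -0.38 for the latter (SE 0.24, adjusted p = 0.433). *Cacna2d2* kept its direction at 0.40 (SE 0.12, adjusted p = 0.0996), as did *Cacna1h* at 0.47 (SE 0.15, adjusted p = 0.127), *Cacna2d1* at 0.12 (SE 0.16, adjusted p = 0.725) and *Hcn2* at 0.40 (SE 0.61, adjusted p = 0.780). With the mean log2 CPM of all 7 atrial markers as the second term, 1338 genes (8.59%) had a called genotype term and 28 (0.18%) a called slope. *Cacna2d2* was then called higher (0.66, adjusted p = 0.00614), *Cacna1c* (-0.79, adjusted p = 0.0121), *Cacnb2* (-0.70, adjusted p = 0.00331) and *Cacna1g* (-0.84, adjusted p = 0.0120) were called lower, and *Hcn4* was at 0.14 (adjusted p = 0.594).

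The libraries of different genotype with the nearest *Myl7* level were *Nrg1GOF* library 4 (212 CPM) and WT library 1 (176 CPM), which are single samples and allow no test. There *Cacna1c* was at 181 against 297 CPM and *Cacnb2* at 34.6 against 58.6 CPM, both lower in *Nrg1GOF*. *Cacna2d2* at 86.4 against 58.3 CPM, *Cacna1h* at 118 against 85.03 CPM, *Cacna2d1* at 129 against 114 CPM and *Hcn2* at 1.5 against 1.18 CPM were higher in *Nrg1GOF*. So was *Hcn4*, by less, at 29.8 against 26.8 CPM, whereas *Cacna1d* at 15.5 against 19.1 CPM and *Cacna1g* at 36.4 against 59.7 CPM were lower.

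Markers of further cell types were counted as well, beside 28.7% of all tested genes called, 15.9% higher and 12.8% lower. All 5 fibroblast and epicardium markers were called higher, with a summed level of 1235 to 1610 CPM in WT and 2216 to 2845 CPM in *Nrg1GOF*, and so were all 3 macrophage markers (27.9 to 34.1 and 59.0 to 67.4 CPM). Of 7 markers shared by all cardiomyocytes 4 were called lower and none higher, and their sum was 24768 to 26827 CPM in WT and 20010 to 23544 CPM in *Nrg1GOF*. Of 6 neuron and ganglion markers 3 were tested and *Tubb3* was called higher (log2 fold change 2.26, edgeR adjusted p = 0.00266), with a sum of 3.85 to 4.89 CPM in WT and 5.50 to 8.34 CPM in *Nrg1GOF*. Their part in the results for the channel genes was not tested. Exons of 4 members overlap genes on the opposite strand. The overlapping genes were at or below 0.566 CPM in every library, against 13.3 CPM or more for the members concerned.

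Other genes of the same pathways were taken from 4 lists. Over all tested genes 15.9% were called higher and 12.8% lower, 28.7% in all. With *Myl7* as a second term, where 3.59% of all tested genes were called, *Bves* (-0.70, edgeR adjusted p = 0.0153) and *Atp2a2* (-0.98, adjusted p = 0.00369) were the called genes of these lists. Some genes not called there had a similar log2 fold change to that without *Myl7*, such as *Cacnb3* (0.47 in place of 0.48) and *Rem1* (0.54 in place of 0.57), and others a smaller one, such as *Cacng4* (0.59 in place of 1.21) and *Cacng6* (-0.51 in place of -1.47). The change was larger for *Akap5* (-0.68 in place of -0.44) and *Ryr2* (-1.52 in place of -0.70). *Gnao1* changed sign (-0.13 in place of 0.49). Of 21 further subunits of HCN and voltage-gated calcium channels 11 were tested, 2 were called higher and 1 lower (3 of 11, beside 28.7% of all tested genes), with a median log2 fold change of -0.05. *Cacng4*, a gamma subunit, rose from 1.90 ± 0.48 CPM to 4.34 ± 0.94 CPM (1.21, SE 0.23, adjusted p = 0.00369), and *Cacng6*, another gamma subunit, fell from 14.2 ± 2.67 CPM to 5.37 ± 2.05 CPM (-1.47, SE 0.23, adjusted p = 0.00118). *Cacnb3*, described above, was the other called gene.

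Of 20 channel partners and RGK GTPases, small GTP-binding proteins that bind beta subunits and restrain L-type current, 18 were tested, 3 were called higher and 4 lower (7 of 18, beside 28.7% of all tested genes, median -0.09). With each WT pair summed 4 were called, 2 higher and 2 lower, beside 2464 of 16150 tested genes called in that fit. Of the 4 RGK genes 3 were called, and not in the same direction, while *Rem2* had a log2 fold change of 0.03 (edgeR adjusted p = 0.992). *Rrad* fell from 212 ± 7.29 CPM to 149 ± 14.3 CPM (-0.51, SE 0.07, adjusted p = 0.000647), while *Gem* rose from 5.07 ± 0.33 CPM to 8.03 ± 0.79 CPM (0.67, SE 0.12, adjusted p = 0.00223) and *Rem1* from 10.8 ± 0.75 CPM to 16.2 ± 2.33 CPM (0.57, SE 0.11, adjusted p = 0.00425). The groups did not overlap for these 3 genes.

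The arm of cyclic AMP signalling that tunes HCN and L-type channels had 18 genes, all tested, with 4 called higher and 3 lower (7 of 18, beside 28.7% of all tested genes, median -0.04). *Chrm2*, the muscarinic receptor through which the vagus slows the heart, rose from 56.4 ± 3.02 CPM to 92.5 ± 11.2 CPM (0.72, SE 0.09, adjusted p = 0.000279), and *Adcy1*, an adenylyl cyclase stimulated by calcium, from 7.99 ± 0.75 CPM to 15.2 ± 1.52 CPM (0.93, SE 0.11, adjusted p = 0.000226). *Bves* and *Popdc3*, members of the Popeye family of cyclic AMP binding membrane proteins, fell by 0.74 (SE 0.05, adjusted p = 1.98e-05) and by 0.53 (SE 0.08, adjusted p = 0.00116) on the log2 scale, from 382 ± 5.80 CPM to 228 ± 12.9 CPM and from 41.2 ± 2.70 CPM to 28.7 ± 2.79 CPM.

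The calcium cycling partners numbered 9, all tested, with 1 called higher and 4 lower (5 of 9, beside 28.7% of all tested genes and 12.8% called lower, median -0.32). With each WT pair summed 3 were called, all lower, beside 2464 of 16150 tested genes called and 916 called lower in that fit. *Atp2a2*, the calcium pump of the sarcoplasmic reticulum, fell from 3579 ± 157 CPM to 1913 ± 76.9 CPM (-0.90, SE 0.06, adjusted p = 8.56e-06), and *Pln*, its inhibitor, from 2134 ± 132 CPM to 1349 ± 127 CPM (-0.66, SE 0.08, adjusted p = 0.000271). The calcium release channel *Ryr2* was not called (-0.70, edgeR adjusted p = 0.0739), with 453, 337, 282 and 335 CPM in *Nrg1GOF* and 725, 817, 378 and 372 CPM in WT. WT libraries 3 and 4 lay inside the *Nrg1GOF* range, and the log2 fold change was -1.13 (adjusted p = 0.00178) against WT libraries 1 and 2 and -0.09 (adjusted p = 0.725) against WT libraries 3 and 4.

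**Figure D5:**
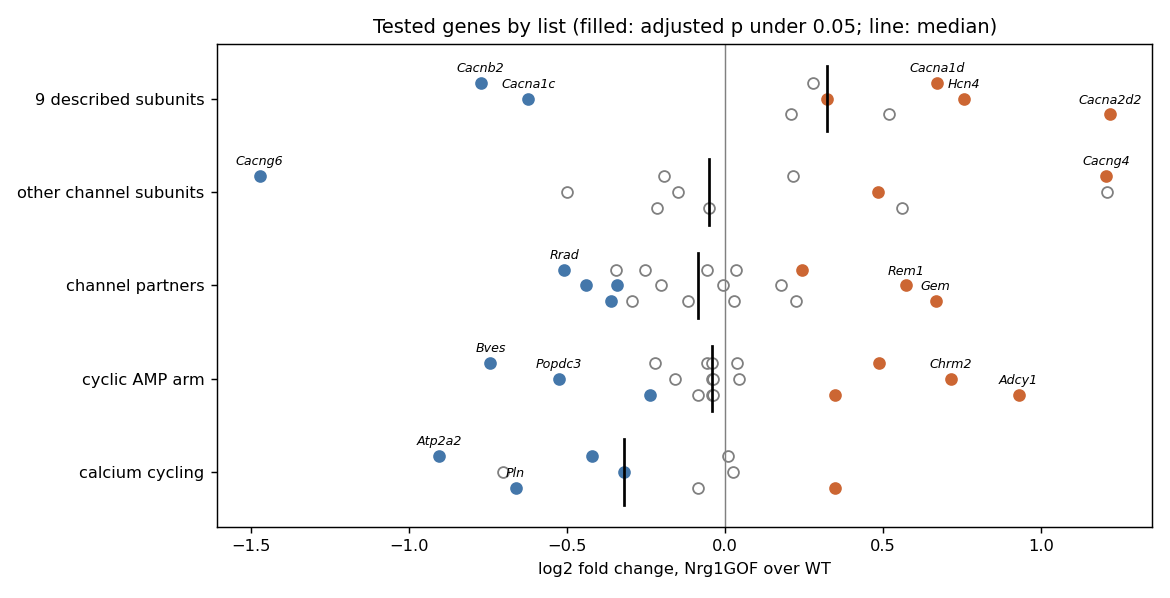
Log2 fold change of *Nrg1GOF* over WT for each tested gene of the 9 channel genes and of the 4 lists of further pathway genes, with filled points for called genes and a line at each median. Called genes lay on both sides of 0 in every list, and the medians were between -0.32 for calcium cycling and 0.32 for the 9 channel genes.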

How the data were processed

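Poly(A) RNA of embryonic ventricles was sequenced as single reads of 60 bases from directional libraries (4 *Nrg1GOF*, 4 WT). The authors deposited expected counts per gene (estimated by RSEM, so not always whole, and unscaled) on GRCm38 with Ensembl release 91 as the table is named; cutadapt and RSEM 1.3.1 are named in the submitters' processing notes, and the aligner and strand setting are not given in the sources used here. Of the Ensembl identifiers, 53360 were matched to a symbol in GENCODE M21, a later release than the one counted, and 105 were not.

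Expected counts were rounded, filtered with filterByExpr, scaled by TMM and compared by the quasi-likelihood test (glmQLFTest) of edgeR 4.0.16 (R 4.3.3) with genotype as the only term, adjusted after Benjamini and Hochberg. The SE was taken as the size of the log2 fold change over the root of F. Ratios of paired members were compared by a two-sided exact permutation test over 70 assignments. The procedure was tested on simulated data.

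Members and lists were chosen with earlier results of these data known. Named genes were the 9 members, *Nrg1*, *Myl7*, called list genes with an absolute log2 fold change of at least 0.5, markers where a result turns on them, and for *Hcn4* and *Cacna2d2* the 5 protein-coding genes with the nearest profile, at an average log2 CPM of at least 1. *Cacnb3*, *Rem2*, *Ryr2*, *Akap5* and *Gnao1* were named outside this rule. Alternatives were DESeq2 1.42.0, limma-voom (limma 3.58.1), the likelihood ratio test, other scalings and filters, unrounded or thinned counts, covariates, WT pairs, a replicate block and leaving out each library. Equal replicate numbers did not mark a litter or batch in the labels, and the check of pairing is given with the alternatives.

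A floor of 3 counts corresponds to 0.112 to 0.373 CPM, depending on the library. Floors cover counting error only.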

Additional observations from a re-analysis of the deposited data

How the results depend on the processing

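The 9 channel genes had 224 values under alternatives, of which 199 kept direction and side of the threshold. Calls were lost in 16 values, 3 of them with a change of sign, and gained in 8, 2 of them with a change of sign, and 1 more value changed sign without a call. Sign changes were *Hcn4* (-0.15 with *Myl7*), *Cacna1d* (-0.38 with *Myl7*, -0.044 with the atrial markers) and *Cacna1g* (-1.33, -0.84, and -0.16 against WT libraries 1 and 2). *Cacna1c* and *Cacnb2* stayed called in all of theirs. Without each library in turn, 5 to 7 channel genes and 3239 to 4261 genes were called, with 3 to 4 other subunits, 6 to 9 partners, 5 to 8 cyclic AMP genes and 4 to 5 calcium cycling genes. *Myl7* as a covariate left 3 channel genes, 559 genes in all, 0 other subunits, 0 partners, 1 cyclic AMP gene and 1 calcium cycling gene (at an unadjusted edgeR p under 0.05, 0 other subunits and 5 partners). The atrial marker covariate left 1338 genes, 0 other subunits (3 unadjusted), 2 partners, 3 cyclic AMP genes and 2 calcium cycling genes. The Y-linked level as a covariate left 6 channel genes (4 higher, 2 lower) and 4168 genes in all. Summing each WT pair left 4 channel genes (2 higher, 2 lower, without *Cacna1d* and *Cacna1h*), 2464 genes, 4 partners and 3 calcium cycling genes. An edgeR adjusted p under 0.01 left 2535 genes and 4 channel genes (2 higher, 2 lower, without *Hcn4* and *Cacna1d*). The cause was not tested. The log2 ratio of *Cacna1h* to *Cacna1g* ranged from -0.21 to 0.29 without each library. In the exact permutation test, unadjusted, the ratio of *Cacna1d* to *Cacna1c* had p = 0.0571 without any 1 WT library, as did that of *Cacna2d2* to *Cacna2d1* without WT library 3. Scaling by library total moved the median of all genes from -0.01 to 0.03 and raised the higher calls from 55.4% to 65.4% of all calls. The replicate block called 7 channel genes (5 higher, 2 lower, with *Cacna2d1* gained) and 4524 genes in all, 4093 of them shared. Same-numbered libraries deviated together with correlations of 0.129, 0.0492, 0.199 and 0.0668, and not every library correlated best with its own number. *Hcn2* gave no value in thinned counts. It had 12 to 40 counts per library, and whether this depth limited its detection was not tested.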

Other observations

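The genes with the most similar profile to *Hcn4* over the 8 libraries, by the root mean square difference of centred log2 CPM among 12262 protein-coding genes, were *Slc2a13* (0.063), *Adamts12* (0.075), *Nexmif* (0.079), *Xylt1* (0.083) and *Plcb1* (0.090). *Slc2a13*, a proton-coupled inositol transporter, averaged 6.40 CPM in WT and 11.2 CPM in *Nrg1GOF*, and *Plcb1*, a phospholipase C downstream of Gq-coupled receptors, 6.65 and 10.9 CPM. For *Cacna2d2* the nearest were *Trabd2b* (0.072), *Cntfr* (0.078), *Ephb2* (0.099), *Fgfr2* (0.100) and *Foxp2* (0.100). *Fgfr2*, a fibroblast growth factor receptor, averaged 13.6 and 34.6 CPM and *Foxp2*, a forkhead factor, 9.23 and 20.4 CPM. This likeness is a description over 8 libraries that also share their genotypes.

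Among marker lists not set beside the channels, 3 of 6 endothelial and endocardial markers were called higher and none lower (summed level 993 to 1027 CPM in WT and 1052 to 1173 CPM in *Nrg1GOF*). The shares called over all tested genes were 15.9% higher and 12.8% lower. Of 4 smooth muscle markers 1 was called higher and 1 lower, *Cnn1* with a log2 fold change of 0.73 and *Acta2* with -0.70, and their sum was 1231 to 1374 CPM in WT and 923 to 1063 CPM in *Nrg1GOF*. None of the 6 red blood cell markers was called, with a sum of 4373 to 12954 CPM in WT and 5374 to 8837 CPM in *Nrg1GOF*.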
